A study of Mus musculus with 6 samples.

Results

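The comparison described here is the net change of gene expression over 120 minutes in NIH3T3, a mouse fibroblast line of embryonic origin. It uses 4 of the 6 Affymetrix arrays of the study: 1 array at 0 minutes and 1 at 120 minutes from cells labelled wild-type for LPAR1, and the same pair from cells labelled LPAR1 mutant. LPAR1 is a cell-surface receptor for lysophosphatidic acid. The genotype label paired each 120 minute array with its 0 minute array, and all 18193 genes with a probe set assigned to a single gene symbol were followed, each through its probe set of highest mean level. Arrays of 60 minutes, 1 per genotype, entered the estimate of the spread and are given as values between the end points. The labels name the cell line, the genotype and the time; the stimulus, if any, given at 0 minutes, the nature of the receptor mutation, how the mutant cells were made and whether the arrays came from separate cultures or clones are not given in the sources used here. The p-values therefore measure only the spread between these arrays, which may be technical. The genotypes serve as each other's replicates, so a genotype difference in the change over time also counts as spread.

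Resting fibroblasts that meet serum or a growth factor switch on immediate early genes first, from transcription factors that are already present in the cell. Among these are SRF, which with its actin-sensing partners of the MRTF family turns on cytoskeletal genes, and the factors downstream of the ERK kinase. The products of the immediate early genes, together with feedback inhibitors such as the dual-specificity phosphatases, then shape a second set of delayed early genes. In the same cells the PI3K and AKT kinases hold FoxO transcription factors out of the nucleus, which lowers a set of genes linked to growth arrest.

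Arrays had mean intensities of 299 to 308 and medians of 34.1 to 37.3. For Actb, the 5' control set divided by the 3' one, which reflects RNA integrity, gave 0.579 and 0.505 in wild-type and mutant cells at 0 minutes and 0.699 and 0.661 at 120 minutes, so this ratio moved with time, and its part in the results was not tested. The same ratio for Gapdh was 1.02 and 0.954 at 0 minutes and 0.991 and 1.03 at 120 minutes, with overlapping values. Of 11 fibroblast markers, 10 had an intensity of at least 100 at 0 or 120 minutes, among them Col1a2, Vim and Fn1, and Lum was near the floor of the arrays. No marker of endothelium, skeletal muscle or fat cells reached 100, while 1 of 7 macrophage and leukocyte markers (Lyz2) and 3 of 6 epithelial markers did. Epcam did so by 1 probe set, with means of 211 and 249 at 0 and 120 minutes. A second Epcam probe set read 5.88 and 3.74, near the floor of the arrays. The epithelial keratin Krt14 read 1267 and 1242 at 0 minutes and 1001 and 1029 at 120 minutes, wild-type first. In the test described below Krt14 fell by 0.30 and the epithelial cadherin Cdh1 by 0.53 (2 of 6 epithelial markers, whose median was -0.30), as did 2 of 11 fibroblast markers, whose median was 0.01; without the genotype block these counts were 0 and 1. The part of these markers in the results was not tested. Lpar1 itself read 1335 and 1496 at 0 minutes and 1289 and 1438 at 120 minutes, a log2 difference of -0.05 ± 0.059 (SE; limma, adjusted p = 0.612); a second Lpar1 probe set gave 0.07. These probe sets report the level of the transcript and say nothing about the mutation.

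Expression at 120 minutes differed from that at 0 minutes for 25.1% of all genes: 1610 genes (8.85%) were higher and 2956 (16.2%) were lower at an adjusted p of 0.05, from a limma fit with time and genotype as terms and Benjamini-Hochberg adjustment over all probe sets. In what follows a gene "rose" or "fell" when it passed this test. Differences are 120 minus 0 minutes in log2(intensity + 16), averaged over the genotypes, given with their standard error and resting on 2 arrays per time; the offset of 16 understates folds at low intensity. Most called changes were small, with a median size of 0.47. Among the 8954 bright genes, those of intensity 100 or more at 0 or 120 minutes, 16% were higher and 28.1% lower. Most members of most gene lists described here were of this intensity, so that their counts are to be read against these shares too. The split between rises and falls depended on scaling: 35.3% of called genes were higher with the deposited values and 48.5% after each array was centred on its median, which called 2064 genes higher and 2195 lower. The median of all genes was -0.05 with the deposited values. Counts without the genotype as a block were 919 higher and 1432 lower. They fell to 1040 higher without the wild-type 120 minute array, and to 1918 or 1795 lower without the mutant 0 or 120 minute array.

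Large changes leaned the other way. Among called genes, 235 (1.29%) were at least 2-fold higher and 194 (1.07%) at least 2-fold lower. At a limit of 4-fold the counts were 49 higher and 13 lower, at 8-fold 16 and 2, and at 16-fold 7 and 0. A count with no fit found 202 genes (1.11%) at least 2-fold higher in each genotype and 158 (0.868%) that were as much lower in each. Restricted to genes of intensity 100 or more at 0 or 120 minutes, 219 of the called genes were at least 2-fold higher, and 103 of these had a second probe set that bright. All 103 second probe sets pointed up and 101 were called. A second set could meet the intensity limit through its own rise, so dim sets that did not move were left out of this count. Both sets of a gene also read the same RNA, so they are no independent evidence. Of the 176 such genes that were at least 2-fold lower, 65 had a second bright probe set, which pointed down for 64 and was called down for 61. For 1 gene the second set was called up. These sets could likewise meet the limit through a high level at 0 minutes.

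**Figure D1:**
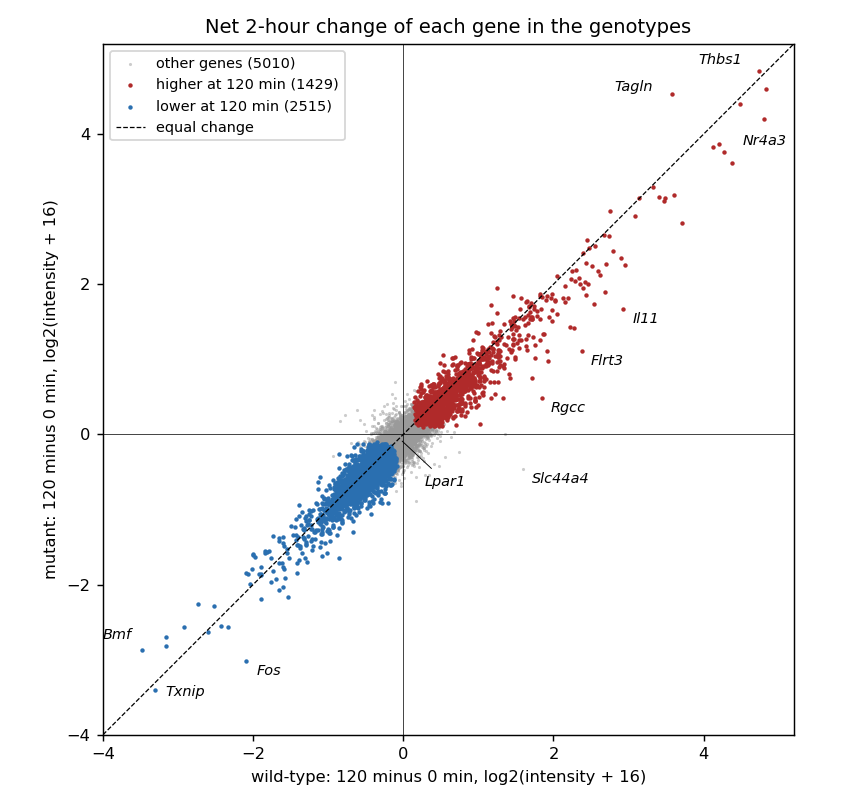
Net change of each of 8954 genes with an intensity of 100 or more, in wild-type cells (horizontal axis) and mutant cells (vertical axis), as the difference of log2(intensity + 16) between 120 and 0 minutes; each point is 1 gene measured on 4 arrays, red and blue mark called rises and falls, and the dashed line marks equal change. The points follow the line of equal change from Txnip and Bmf at the lower left to Thbs1 at the upper right, and Lpar1 lies near the origin.

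The 12 largest rises were Thbs1, Fosl1, Nr4a3, Hbegf, Tagln, Egr3, Dusp5, Ereg, Noct, Errfi1, Dusp4 and Acta2. Thbs1, which encodes the matrix protein thrombospondin 1, read 114 and 66.3 at 0 minutes in wild-type and mutant cells and 3455 and 2333 at 120 minutes. Its log2 difference was 4.79 ± 0.0645, or 27.6-fold (limma, adjusted p = 6.43e-10). Both 120 minute arrays were far above both 0 minute arrays, and the 60 minute arrays were already at 3161 and 2145. The 12 largest falls were Txnip, Bmf, Ccng2, Pik3ip1, Ddit4, Trp53inp1, Fos, Id3, Fbxo32, Ypel2, Sesn1 and Fam53b. In none of these 24 genes did the values at 0 and 120 minutes overlap. They were chosen as the largest changes shared by both genotypes, which largely fixes this outcome. For Egr3, Nr4a3, Bmf, Trp53inp1, Sesn1, Ypel2 and Acta2 a further probe set, of intensity 75 or less, moved far less or not at all, while brighter second probe sets of Sesn1 (-2.09 and -2.32) and Ypel2 (-2.30) gave falls like the main ones.

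**Figure D2:**
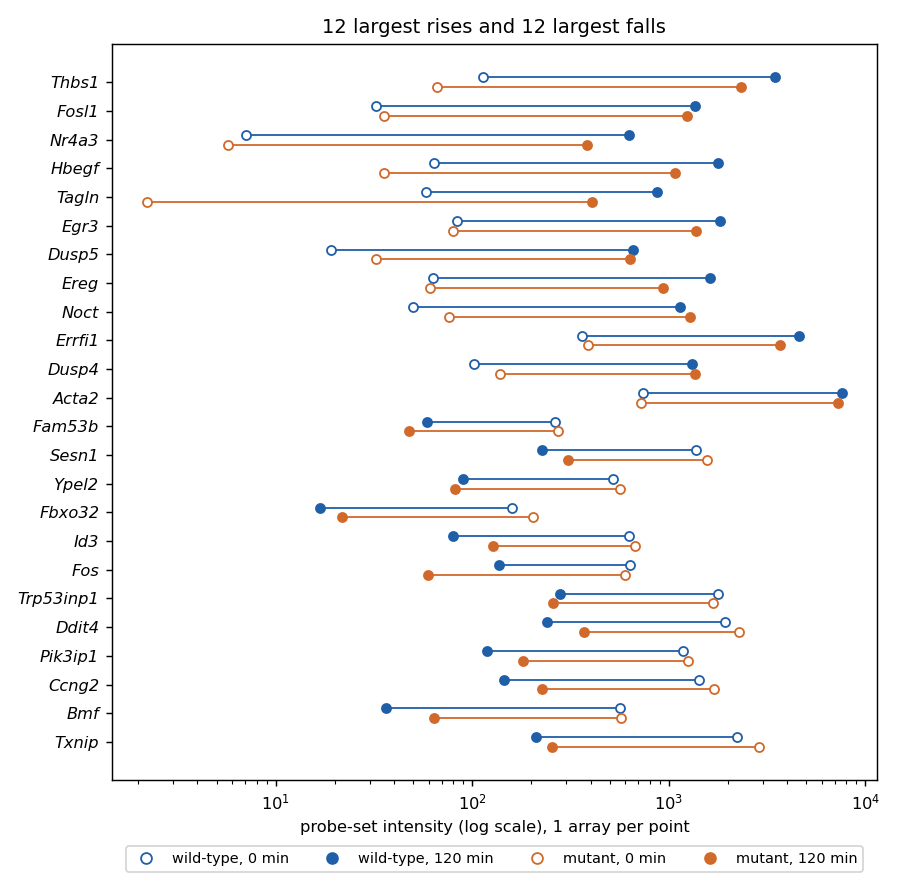
Probe-set intensity on a log axis of the 12 genes with the largest rises and the 12 with the largest falls; open circles are 0 minutes, filled circles 120 minutes, blue wild-type and orange mutant, and each circle is 1 array. Every pair of filled circles lies on one side of the open circles of its gene, from Thbs1 (114 and 66.3 against 3455 and 2333) to Txnip (2219.8 and 2858 against 210 and 255). The choice of the largest changes largely fixes this separation.

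Immediate early transcription factors stood apart from each other at 120 minutes. Of 29 measured, 18 were higher than at 0 minutes and 4 were lower, with a median of 0.89 against -0.05 for all genes. Fosl1, a partner of Jun in the AP-1 factor, read 32.3 and 35.7 at 0 minutes and 1354 and 1242 at 120 minutes, 4.72 ± 0.092 on the log2 scale (limma, adjusted p = 5.64e-09). It was higher at 120 than at 60 minutes (958 and 1122) in both genotypes. The orphan nuclear receptor Nr4a3 likewise climbed from 7.07 and 5.71 to 300 and 209 at 60 minutes and 629 and 382 at 120 minutes. Its relative Nr4a1 peaked earlier, at 6280.3 and 5614 at 60 minutes, and still read 4399 and 3959 at 120 minutes against 484 and 434 at the start (3.14 ± 0.053). The zinc finger factor Egr3 went from 83.4 and 79.6 to 4837 and 4625 and back to 1821 and 1381, a net difference of 4.04 ± 0.088.

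Fos, the founding member of the same AP-1 family, ended below its start. It read 633 and 595 at 0 minutes, 2516 and 1486 at 60 minutes and 136 and 59.7 at 120 minutes, so the net difference was -2.55 ± 0.169 (limma, adjusted p = 6.59e-06). Both 120 minute values were under both 0 minute values, although those of 60 minutes were above them. Egr1 (3117 and 3336, then 2097 and 1765), Ier2 and Klf10 followed the same path, with net differences of -0.74, -0.86 and -0.48. Junb and Jun, both higher at 60 than at 0 minutes on each pair of arrays, had net differences of -0.14 and -0.12 that did not pass. The remaining rises included Srf (2.17), Arc (2.29), Maff (1.96), Fosb (1.84), Egr2 (1.75), Nr4a2 (1.74), Fosl2 (1.46), Nab2 (1.42) and Myc (0.67). Nab2, a corepressor that binds EGR proteins, read 826 and 880 at 120 minutes and 841 and 923 at 60 minutes, whereas Egr2 had dropped from 3388 and 2898 to 481 and 343. The sequence of values at 0, 60 and 120 minutes shares its 0 minute arrays between both differences, and the levels at 60 minutes are given as a description.

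**Figure D3:**
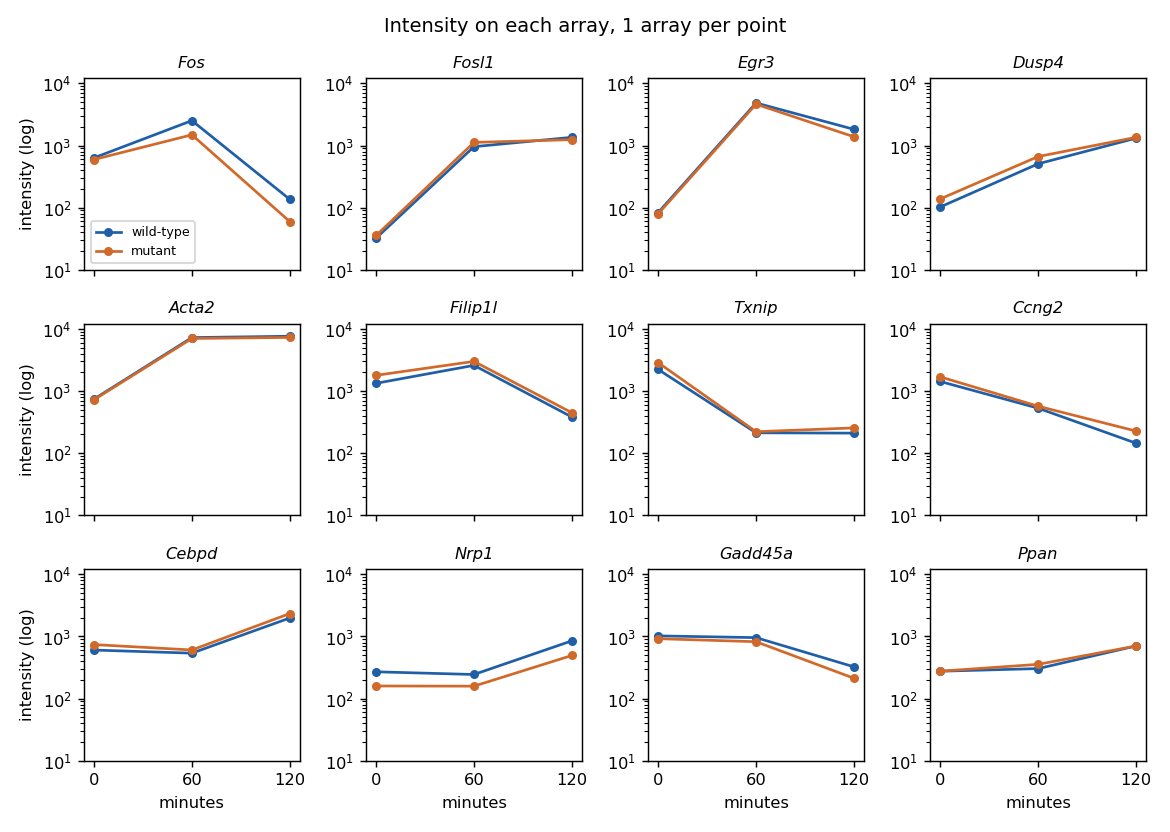
Intensity on a log axis at 0, 60 and 120 minutes for 12 genes, 1 array per point, blue for wild-type and orange for mutant cells. Fos and Filip1l rise and end below their start, Fosl1 and Dusp4 are highest at 120 minutes, Txnip reaches its low level by 60 minutes, and Cebpd, Nrp1 and Gadd45a move between 60 and 120 minutes.

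Of 19 measured feedback regulators of ERK signalling, 11 were higher, 1, Dusp1, was lower and 7 did not pass at 120 minutes. Their median was 0.59, and 8.85% of all genes and 16% of bright genes were higher. Without the genotype block 10 were higher and 0 lower. Dusp5, a nuclear phosphatase of ERK, read 19.1 and 32.4 at 0 minutes and 660 and 638 at 120 minutes (4.01 ± 0.113; limma, adjusted p = 4.17e-08). Errfi1, an inhibitor of the EGF receptor, went from 362 and 389 to 4574 and 3674 (3.39 ± 0.086). Dusp4 went from 103 and 138 to 1312 and 1354 (3.32 ± 0.094), and on both genotypes' arrays it was higher at 120 than at 60 minutes. Dusp6, Dusp14, Phlda1 and Spry2 rose by 1.54, 1.70, 1.89 and 1.90. Dusp1, whose product acts on several MAP kinases, read 4723 and 4182 at 0 minutes and 3257 and 3815 at 120 minutes (-0.33 ± 0.083), a smaller change with the lowest value in a wild-type array.

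Growth factors and cytokines were higher for 11 of 20 measured members and lower for 1, with a median of 0.67, beside 8.85% of all genes higher. Hbegf and Ereg, both ligands of the EGF receptor family, showed the largest differences. Hbegf read 63.8 and 35.6 at 0 minutes and 1768 and 1070.5 at 120 minutes (4.44 ± 0.116, 21.7-fold; limma, adjusted p = 2.72e-08). Ereg read 62.8 and 61.2 and then 1618 and 929 (3.99 ± 0.165). Another ligand of the family, Tgfa, fell from 108 and 118 to 80.3 and 61.7 (-0.58 ± 0.121). Inhba, a subunit of activin, rose by 2.37 (-0.16 in a dim second probe set), Gdnf by 2.21, the platelet-derived growth factor Pdgfa by 1.83, Csf1 by 1.55, Fgf7 by 1.11 and Vegfa by 0.82. Il11, a cytokine of the interleukin 6 family, rose by 2.30 ± 0.232 and the genotypes differed: 25.1 to 297 in wild-type and 21.4 to 103 in mutant cells. Il6 read 29.2 in mutant cells at 120 minutes and 3.33 at 0 minutes, so its rise of 1.16 lay close to the floor of the arrays. Bdnf, Lif and Vegfc were among the 8 members that did not pass.

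Targets of SRF and MRTF, the genes of the actin cytoskeleton, moved together. Of 26 measured, 22 were higher and 1 was lower, with a median of 0.79, beside 8.85% of all genes and 16% of bright genes higher. Acta2, smooth muscle actin, read 742 and 723 at 0 minutes and 7607 and 7274 at 120 minutes (3.32 ± 0.049, 9.96-fold; limma, adjusted p = 8.32e-10). Tagln, an actin cross-linking protein, read 58.2 and 2.21 and then 871 and 405 (4.05 ± 0.223), and its mutant starting value was at the floor of the arrays, so the size of that rise depends on the offset. Vcl, or vinculin, of focal adhesions, went from 2319 and 2243 to 6400.5 and 5676 (1.40 ± 0.053). Values at 120 minutes lay above those at 0 minutes on every array of these genes, which were named for their large rises. Smaller rises were seen in the tropomyosins Tpm1 (1.44, with 1.54 and 0.68 in further probe sets of intensity 1187 and 112), Tpm4 (0.88) and Tpm2 (0.47), the LIM proteins Pdlim7 (1.13) and Zyx (0.86), the cytoplasmic actins Actg1 (0.57) and Actb (0.30), and in Wdr1, Actn1, Flna and Myh9 (1.02, 0.49, 0.48 and 0.35). Mylk, Cald1 and Cnn1 did not pass. The single fall was that of Filip1l, a filamin A-interacting protein: it read 1329.6 and 1788 at 0 minutes, 2585 and 2994 at 60 minutes and 382 and 447 at 120 minutes, a net difference of -1.86 ± 0.070 (adjusted p = 2.22e-07).

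The promoters of Vcl, Srf and Filip1l are shown because these genes share the SRF binding motif, the CArG box, and ended at different levels: Vcl and Srf above, Filip1l below their start. Each line gives the 250 bases before the RefSeq transcript start on assembly GRCm38.p6, 5′ to 3′ on the gene's strand, with CArG boxes in capitals. Vcl lies at chr14:20929148-20929397 (+ strand), Srf at chr17:46556163-46556412 (- strand) and Filip1l at chr16:57548992-57549241 (+ strand). Of 2 RefSeq promoters of Filip1l only this 1 held a CArG box, and it is shown for that reason.
Vcl: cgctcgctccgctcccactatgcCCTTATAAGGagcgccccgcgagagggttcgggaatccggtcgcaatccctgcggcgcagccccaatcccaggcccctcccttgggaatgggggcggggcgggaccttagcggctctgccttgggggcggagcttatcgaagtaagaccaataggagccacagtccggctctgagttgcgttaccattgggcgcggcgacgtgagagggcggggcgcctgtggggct
Srf: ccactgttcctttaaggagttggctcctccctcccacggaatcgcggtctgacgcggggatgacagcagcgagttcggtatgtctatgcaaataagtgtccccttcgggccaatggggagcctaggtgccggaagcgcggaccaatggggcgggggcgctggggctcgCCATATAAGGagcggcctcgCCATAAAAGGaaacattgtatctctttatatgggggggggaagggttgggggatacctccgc
Filip1l: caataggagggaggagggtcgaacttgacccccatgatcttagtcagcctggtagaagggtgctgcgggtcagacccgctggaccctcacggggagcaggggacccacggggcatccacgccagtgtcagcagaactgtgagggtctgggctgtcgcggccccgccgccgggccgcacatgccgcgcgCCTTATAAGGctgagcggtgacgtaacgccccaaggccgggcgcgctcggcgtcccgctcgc
The box began 227 bases before the start in Vcl, 62 bases before it in Filip1l, and 82 and 62 bases before it in Srf, which carried a pair.

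A promoter was found in the RefSeq table for 14452 of the 18193 genes, and both strands of each promoter were searched. A gene counted as a match if any of its promoters held the motif, so the shares are of genes with a promoter. A CArG box stood in 7 of 22 such genes of the SRF and MRTF list (Actg1, Cnn2, Vcl, Myl9, Fhl1, Fhl2 and Filip1l). It stood in 2 of 22 of the immediate early list (Egr2 and Srf), and in 1.43% of all genes with a promoter. Among called genes at least 2-fold higher it stood in 13 of 183 with a promoter (7.1%), and among those at least 2-fold lower in 4 of 159 (2.52%). The AP-1 motif (TGACTCA or TGAGTCA) was found in 7.65% of the former, 4.4% of the latter and 4.73% of all genes with a promoter. The cyclic AMP response element TGACGTCA was found in 5.46%, 0.629% and 2.5%, and the E-box CACGTG in 12.6%, 9.43% and 8.73%, in the same order. The members of the list were in part chosen for known SRF binding, and a match describes letters in this window only.

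Targets of YAP and TEAD, a pair of factors that respond to cell tension, were higher for 9 of 19 measured members and lower for 1. Their median was 0.23. Of all genes 8.85% were higher and 16.2% lower, and of bright genes 16% and 28.1%. The matricellular protein gene Ccn2 read 832 and 587 at 0 minutes and 4449 and 3206 at 120 minutes (2.41 ± 0.057; limma, adjusted p = 1.76e-08), after 9338 and 7373 at 60 minutes. Its relative Ccn1 went from 1216 and 1417 to 7403 and 7858 at 60 minutes and only 2165 and 1689 at 120 minutes, a net rise of 0.54 ± 0.110. Nuak2 and Ankrd1 rose by 1.72 and 1.27. F3, which encodes tissue factor, ended lower (-0.48) after 2987 and 3685 at 60 minutes, against 724 and 1137 at the start. Without the genotype block 7 members were higher and 0 lower, so that F3 lost its call.

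Of 22 inflammatory and NF-kB targets, 9 were higher and 3 lower, with a median of 0.19. Of all genes 8.85% were higher and 16.2% lower, and of bright genes 16% and 28.1%. Falls were thus no more frequent in this list than among all genes. Ptgs2, the inducible cyclooxygenase, read 1322 and 1068 at 0 minutes and 5286 and 3935 at 120 minutes (1.93 ± 0.078; limma, adjusted p = 3.36e-07). Rel, Tnfaip3 and Relb rose by 1.09, 0.80 and 0.66. The interferon regulatory factor Irf1 fell from 524 and 523 to 146 and 195 (-1.55 ± 0.101), and Birc3 and Nfkbia, the inhibitor of NF-kB, fell by 0.74 and 0.60. Among the 9 measured factors of mRNA decay and growth restraint, 4 rose and 4 fell, or 2 and 2 without the genotype block. Noct, a circadian-linked protein related to mRNA deadenylases, read 50.2 and 75.9 and then 1142 and 1285 (3.98 ± 0.085), while Zfp36l1, which promotes decay of AU-rich messages, went from 1821 and 1801 to 720 and 679 (-1.35 ± 0.058).

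Genes regulated by FoxO factors or linked to quiescence were lower. Of 27 measured, 22 were lower and 0 higher at 120 minutes, with a median of -1.10. Of all genes 16.2% were lower, and of bright genes, which 26 of the 27 were, 28.1%. After median centring 22 were lower and 1 was higher. Txnip, an inhibitor of thioredoxin and of glucose uptake, read 2219.8 and 2858 at 0 minutes and 210 and 255 at 120 minutes (-3.36 ± 0.086, 10.3-fold; limma, adjusted p = 2.33e-08). It was already at 213 and 221 at 60 minutes. Ccng2, an atypical cyclin raised in arrested cells, declined through 529 and 569 at 60 minutes, from 1423 and 1689 to 145 and 227 (-2.99 ± 0.107). Pik3ip1, an inhibitor of PI3K, went from 1184 and 1258 to 119 and 180 (-2.93 ± 0.119), and the TORC1 inhibitor Ddit4 from 1932 and 2275 to 240 and 371 (-2.75 ± 0.145). No 120 minute value of these genes, which were named for their large falls, reached the 0 minute values.

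The death-promoting genes Bmf and Bcl2l11 (Bim) belonged to the same list. Bmf read 566 and 568 and then 36.3 and 64.1 (-3.17 ± 0.146; limma, adjusted p = 7.13e-07), and Bcl2l11 427 and 460 and then 103 and 123 (-1.84 ± 0.087). The cell cycle inhibitor Cdkn1b, p27, went from 1430.0 and 1616 to 536 and 494 (-1.53 ± 0.078). Fbxo32, a ubiquitin ligase of muscle wasting, fell by 2.48, Sesn1 by 2.40, Klhl24 by 1.24, Hbp1 by 1.10 and the insulin receptor Insr by 0.80. Bcl6, a repressor, behaved like Fos in that 60 minute values (1150.5 and 1037) were above those of 0 minutes (673 and 543) and those of 120 minutes (169 and 139) below them. Cited2, Irs2, Cdkn1c, Arrdc3 and Arrdc4 were the members that did not pass.

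The promoter of Txnip is shown because it had the largest fall and a consensus FoxO motif, GTAAACAA, which is in capitals. The line gives the 250 bases before the RefSeq start at chr3:96557707-96557956 (+ strand, GRCm38.p6).
Txnip: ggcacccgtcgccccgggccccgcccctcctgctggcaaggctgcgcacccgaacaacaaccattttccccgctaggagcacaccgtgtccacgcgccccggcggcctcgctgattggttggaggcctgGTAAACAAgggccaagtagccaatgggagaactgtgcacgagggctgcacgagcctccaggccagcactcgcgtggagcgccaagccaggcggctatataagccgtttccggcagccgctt
The motif began 121 bases before the start. Among genes with a promoter, it stood in 2 of 22 of the list (Txnip and Mxi1) and in 6 of 159 (3.77%) of called genes at least 2-fold lower. It stood in 1.64% of those at least 2-fold higher and in 0.983% of all genes with a promoter.

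A further group moved little in the first hour: 777 rises and 1600 falls were in genes of intensity 100 or more whose 60 minute arrays lay within 0.3 (log2) of the 0 minute arrays in both genotypes. Of these, 30 and 41 were already called at 60 minutes, so the limit admits genes with a small early change. The largest of these rises were in Ptchd4, Myzap, Flrt3, Cebpd, Prag1, Sipa1l2, Nrp1 and Kbtbd8. Cebpd, a bZIP transcription factor, read 605 and 741 at 0 minutes, 539 and 607 at 60 minutes and 1984 and 2337 at 120 minutes (1.66 ± 0.064; limma, adjusted p = 2.64e-07). Nrp1, a coreceptor for semaphorins and VEGF, read 270 and 160, then 245 and 159, then 851 and 495 (1.57 ± 0.083). Myzap, a protein of cell junctions, read 93.6 and 92.2, then 104 and 99.2, then 418 and 325 (1.82 ± 0.106). The rule that chose these genes fixes this order of values.

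The largest falls of this late kind were in Nhsl1, Il15, Runx1t1, Gadd45a, Fam214a, Meis1, Phf21a and Dbp. Gadd45a, a growth arrest and DNA damage gene, read 1023 and 922, then 959 and 824, then 325 and 213 (-1.82 ± 0.100; limma, adjusted p = 2.05e-06). The cytokine Il15 read 299 and 306, then 242 and 264, then 57.5 and 73.8 (-1.97 ± 0.096). Runx1t1, a transcriptional corepressor, read 1255 and 1147, then 1053 and 985, then 300 and 318 (-1.90 ± 0.074). A further probe set of Nhsl1, Meis1 and Runx1t1, of intensity under 50, and one of Phf21a, at 147, moved far less, while brighter further probe sets of Runx1t1 (-1.97, -2.19 and -1.89) and of Phf21a (-1.23) fell like the main ones.

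Ribosome biogenesis genes rose without any fall: 19 of 30 measured were higher and 0 lower, with a median of 0.57. Of all genes 8.85% were higher, and of bright genes 16%. Ppan, a factor of large-subunit assembly, read 276 and 277 at 0 minutes and 704 and 704 at 120 minutes (1.30 ± 0.083; limma, adjusted p = 5.11e-06), and was at 304 and 356 at 60 minutes. Odc1, the first enzyme of polyamine synthesis, went from 983 and 938 to 2587 and 1908 (1.20 ± 0.108). The nucleolar proteins Nop56, Nop58 and Rrp12 rose by 1.08, 0.98 and 0.94, and the spermidine synthase Srm by 0.90. Npm1, Ncl and Polr1a, which are also nucleolar, did not pass (-0.06, 0.01 and -0.10). None of 10 measured ribosomal protein genes was called in either direction, and their median was -0.05. A second probe set of Rps3 read 609 on average at 0 minutes and 216 at 120 minutes and fell by 1.43 (limma, adjusted p = 1.49e-06), and 1 of the 10 was higher and 1 lower when each gene's probe sets were averaged. Taken by the start of the symbol alone, which need not select ribosomal proteins only, 3 of 25 bright Rps genes were higher and 2 lower. Of the bright Rpl genes, taken in the same way, 2 of 23 were higher and 0 lower.

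Genes of mitosis were lower. Of 21 measured, 20 fell and 0 rose, with a median of -0.67, beside 28.1% of bright genes lower. No member reached 2-fold by its probe set of highest mean level. Second probe sets of Bub1b and Cenpe, of intensity 193 and 318, fell by 1.04 each, and a dim further Bub1b set gave 0.03. Bub1b, a spindle checkpoint kinase, read 191 and 188 at 0 minutes and 86.8 and 96.3 at 120 minutes (-0.94 ± 0.114; limma, adjusted p = 0.000301). The proliferation marker Mki67 read 653 and 698 and then 392 and 396 (-0.75 ± 0.070), having been at 609 and 655 at 60 minutes. The mitotic kinases Plk1 and Aurka fell by 0.84 and 0.82, the cyclin Ccna2 by 0.67 and Cdk1 by 0.29. Only Tpx2 did not pass, at -0.23. In bulk RNA fewer cells of a cycle phase and less RNA per cell cannot be told apart.

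The other cell cycle lists moved less. All counts given next, those of p53 targets too, stand beside 8.85% of all genes higher and 16.2% lower. Among bright genes these shares were 16% and 28.1%. Of 21 measured DNA replication genes, 8 were lower and 1, Pcna, higher, and without the genotype block 4 were lower and 0 higher, while median centring left 5 lower. Mcm7, a subunit of the replicative helicase, had the largest fall, from 1076 and 1366 to 648 and 750 (-0.78 ± 0.066; limma, adjusted p = 2.9e-05). Of 16 G1 genes, 4 rose and 4 fell. The D-type cyclin Ccnd1 read 1352 and 1288 and then 2059 and 2089.6 (0.65 ± 0.059), and the kinase inhibitor Cdkn1a rose by 0.37, whereas Cdkn1b and Cdkn2c fell by 1.53 and 0.51. Ccnd2, Ccnd3, Cdk4 and Ccne1 did not pass. Among 16 p53 targets 6 rose and 6 fell, with Plk3 (1.39) and Plk2 (1.03) at one end and Trp53inp1 (-2.62), Sesn1 (-2.40) and Bbc3 (-1.03) at the other.

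Stress and metabolic lists held both rises and falls. Most of their members were bright, and bright genes as a whole also went both ways (16% higher, 28.1% lower). The mixture is therefore not read as a trait of these lists. Among 22 genes of amino acid stress and protein unfolding, 6 were higher and 8 lower with a median of -0.06, and 3 were higher without the genotype block. The stress-linked factor Ddit3, or CHOP, read 1683 and 1856 at 0 minutes and 564 and 635 at 120 minutes (-1.54 ± 0.060; limma, adjusted p = 2.69e-07), and Trib3, Herpud1 and Atf4 fell by 1.30, 1.03 and 0.58. The chaperone Hspa5 rose by 0.44 and Xbp1 by 0.50. Among 19 genes of glycolysis and hypoxia, 2 rose and 6 fell, or 1 and 1 without the block, and 3 fell after median centring. Of the 19 members 16 were bright, and among bright genes 16% were higher and 28.1% lower. Over all genes the shares were 8.85% and 16.2%. The counts lie near the shares of bright genes and are not read as a result about this list. The glucose transporter Slc2a1 went from 2275 and 2903 to 4670.1 and 4583 (0.84 ± 0.078), and the vasodilator peptide gene Adm went from 738 and 640 through 1118 and 1039 to 172 and 203 (-1.80 ± 0.099). Of 19 genes of cholesterol and fatty acid synthesis 4 rose and 3 fell (1 rose without the block), the largest being Dhcr7 at -0.78, and of 13 heat shock genes 4 rose and 1 fell (3 and 0 without the block), all under 0.5 in size.

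Most matrix genes did not pass, as was true of all genes, of which 8.85% were higher and 16.2% lower. Of 27 measured, 7 were higher and 0 lower, with a median of 0.02, and the fibrillar collagens Col1a1, Col1a2 and Col3a1 had differences of 0.03, 0.01 and 0.01 that did not pass. Beside Thbs1, the metalloproteinase inhibitor Timp1 rose from 994 and 613 to 3537 and 2282 (1.84 ± 0.098; limma, adjusted p = 1.74e-06), and Timp3 from 1465 and 1708 to 3100.4 and 3495 (1.05 ± 0.055). The basement membrane collagens Col4a1 and Col4a2, which lie side by side in the genome, rose by 0.82 and 0.44, and a second Col4a1 probe set gave 0.31. Tnc rose by 1.13, which had an adjusted p of 0.0986 without the genotype block. With the mean of all probe sets in place of the brightest, 11 matrix genes were higher and 2 lower.

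Feedback genes of TGF-beta and BMP signalling gave 5 of 20 higher and 4 lower (2 lower without the genotype block), beside 8.85% of all genes higher and 16.2% lower. Pmepa1, an inhibitor of TGF-beta signalling, read 210 and 158 at 0 minutes and 1314 and 980 at 120 minutes (2.54 ± 0.101; limma, adjusted p = 3.04e-07), and Smad7 rose by 1.09 and Skil by 0.83. Further Pmepa1 probe sets gave 2.04 at an intensity of 378 and 0.38 at one of 73. The BMP-responsive genes Id3 and Smad6 fell. Id3 read 625 and 675 and then 80.0 and 128 (-2.50 ± 0.128), and Smad6 180 and 198 and then 38.5 and 56.0 (-1.71 ± 0.133), whereas Id1, at 572 and 671 at 60 minutes, had a net difference of -0.21 that did not pass. Of 15 Wnt and Notch genes 4 rose, among them Ccn4 (1.70) and Hes1 (1.68), and 1 without the block.

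Clock genes went both ways, with 7 of 18 higher and 7 lower. Of all genes 8.85% were higher and 16.2% lower, and of bright genes 16% and 28.1%. Of the repressors, Per2, Cry1 and Per1 rose by 1.46, 1.06 and 0.86, and Nfil3 went from 71.3 and 54.3 to 343 and 287 (2.08 ± 0.096; limma, adjusted p = 7.13e-07). Cry2, a relative of Cry1, fell from 181 and 144 to 132 and 114 (-0.36 ± 0.088). The PAR-domain activators Dbp and Tef and the nuclear receptor Nr1d1 fell, Dbp from 877 and 872 to 334 and 281 (-1.46 ± 0.087) and Nr1d1 from 70.3 and 75.7 to 22.4 and 20.2 (-1.25 ± 0.115). Arntl, which encodes BMAL1, rose by 0.61 and Clock by 0.31. Per3 fell by 1.15, and 2 of its further probe sets by 0.94 and 0.69, while its other probe sets and those of Per2, all below an intensity of 90, had differences under 0.4 in size that did not pass.

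Among receptors and enzymes of lysophosphatidic acid and sphingosine 1-phosphate, 3 of 15 were higher and 3 lower, with a median of -0.02, beside 8.85% and 16.2% of all genes. S1pr3, a receptor for sphingosine 1-phosphate, read 222 and 251 at 0 minutes and 1102 and 1102 at 120 minutes (2.15 ± 0.073, 4.44-fold; limma, adjusted p = 1.41e-07). Sphk1, the kinase that makes this lipid, went from 105 and 81.1 to 367 and 299 (1.68 ± 0.086). Further probe sets of S1pr3 gave 1.49 at an intensity of 97.8 and 0.34 at one of 6.78, and a dimmer one of Sphk1 gave 0.52. Among receptors for lysophosphatidic acid 2 fell: Lpar4 from 169 and 145 to 89.4 and 56.0 (-0.99 ± 0.134), and Lpar2, near the floor, from 27.7 and 24.9 to 12.4 and 9.41. Lpar1, Lpar3 and Lpar6 did not pass.

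**Figure D4:**
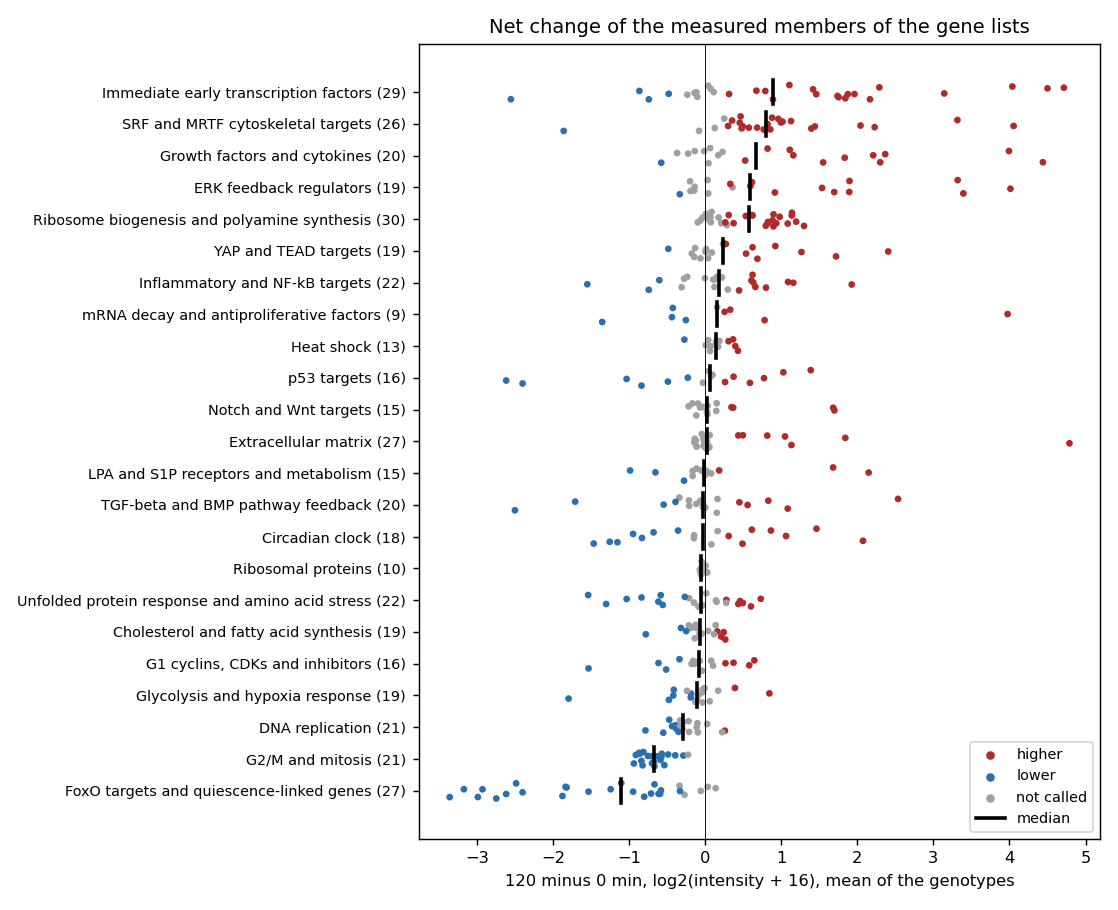
Net change of each measured member of the gene lists, as the difference of log2(intensity + 16) between 120 and 0 minutes averaged over the genotypes; red and blue points passed the test as higher or lower, grey points did not, and black bars are medians. The medians run from 0.89 for immediate early transcription factors to -1.10 for FoxO and quiescence-linked genes, and lists such as the circadian clock hold points on both sides of 0.

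The net changes of the genotypes resembled each other. Across the 8954 genes of intensity 100 or more, Pearson's r between the wild-type and the mutant net change was 0.935, and across all genes 0.813; genes are not independent replicates, and the values rest on separate arrays. Of 279 genes at least 2-fold higher in wild-type cells and 228 in mutant cells, 202 were shared, which is 72.4% of the wild-type and 88.6% of the mutant list. Of 193 and 239 genes at least 2-fold lower, 158 were shared, 81.9% of the wild-type and 66.1% of the mutant list. In 0 genes did the genotypes move at least 2-fold in opposite directions. Of the 219 bright genes called at least 2-fold higher, 165 rose more in wild-type and 54 more in mutant cells, with median rises of 1.53 and 1.38. Of the 176 called at least 2-fold lower, 73 fell more in wild-type and 103 more in mutant cells, with medians of -1.25 and -1.30. With 1 array per genotype and time, a difference between the genotypes in these changes has no residual spread and was not tested.

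The difference between net changes had a standard deviation of 0.179 across bright genes, and 8 genes were more than 1 apart. Il11, Flrt3, Rgcc and E2f8 were among the 6 genes with the most net gain in wild-type over mutant cells. Flrt3, a cell adhesion protein, read 144 at 0 and 816 at 120 minutes in wild-type cells and 126 and 293 in mutant cells, net changes of 2.38 and 1.12. Rgcc, a regulator of cell cycle progression, read 32.6 and 158 in wild-type and 37.8 and 59.5 in mutant cells (1.84 and 0.49). The cell cycle repressor E2f8 read 91.0 and 256 in wild-type cells, against 86.5 and 86.7 in mutant cells (1.35 and 0.00). Both E2f8 values of mutant cells were at the wild-type starting level. In the other direction Tagln changed by 3.58 in wild-type and 4.53 in mutant cells, from a mutant value at the floor of the arrays. Neither direction carries an error, since each value is a difference of 1 array from another.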

How the data were processed

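RNA of NIH3T3 cells was measured on 6 Affymetrix arrays. The deposited values are linear probe-set intensities, which per the submitters' processing notes came from Affymetrix Power Tools 1.14.3.1 and PLIER; their background correction and scaling are not given in the sources used here. Of 45101 probe sets, 64 controls, 932 with several gene symbols and 9160 with none were left out, which left 34945 sets of 18193 genes, and 34741 sets matched RefSeq (GRCm38.p6). Intensities were used as log2(intensity + 16) with no further scaling or filter. limma 3.58.1 in R 4.3.3 fitted time and genotype with trended shrinkage, 2 residual and 7.51 prior degrees of freedom, and two-sided tests at an adjusted p of 0.05. Genotype, from the labels, paired the arrays: across genes the genotype difference at 0 minutes correlated with that at 60 and 120 minutes at r of 0.561 and 0.484, and that at 60 with that at 120 at 0.426. The procedure was tested on simulated data. The number of arrays limits the precision.

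Members and gene lists were chosen with earlier results of these data known, so a list is no independent evidence of its direction. Lists are described by counts and medians, without a set test. The rule for named genes required an intensity of 100 at 0 or 120 minutes and took the 12 largest rises and falls, the 8 largest of each among genes within 0.3 of the start at 60 minutes, the 6 in each direction that differed most between genotypes, up to 6 members of each list, and Lpar1; any list member could be given as a value. Alternatives varied the offset (1 and 64), the scaling (quantile, median), the arrays in the fit, the shrinkage, the block, a filter at the 40th percentile, the probe set rule, the fold limit, and each array left out. Comparisons of genotypes for their own sake were not analysed here. A result that needs a withheld item is not reported here.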

Additional observations from a re-analysis of the deposited data

Results flagged for a closer look

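In 9 of the genes described, the wild-type pair and the mutant pair of arrays moved in opposite directions between 0 and 120 minutes; each direction rests on 1 pair of arrays, and the difference was not tested. None of the 9 was called in the net change. Mutant minus wild-type net change was positive in 5 of them. Slc9a3r2, a scaffold of membrane transporters, changed by -0.77 in wild-type and 0.25 in mutant cells, 1.03 apart. Ctrb1, a digestive protease precursor, differed by 1.02 and Sost, an inhibitor of Wnt signalling, by 0.93. Grid2ip and Cfap57 differed by 0.80 and 0.77. The difference was negative in the other 4: -2.06 for the transporter Slc44a4, which read 16.1 and 81.4 in wild-type and 231 and 164 in mutant cells, -1.05 for Rasgrp2, an activator of Ras-family GTPases, -0.98 for the epithelial marker Epcam, and -0.21 for the ribosomal protein gene Rps6. Other probe sets of Slc9a3r2, of intensity 59 or less, had mean net changes between -0.08 and 0.15. A second Epcam probe set, near the floor at 5.88 and 3.74, had a mean net change of -0.15 that was not called.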

How the results depend on the processing

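Without the genotype (replicate) block, 919 genes were higher and 1432 lower, in place of 1610 and 2956. With each array left out in turn, higher genes numbered 1040 to 1722 and lower genes 1795 to 3161. At least 2-fold higher in both genotypes were 202 genes, or 506 at a limit of 1.5-fold and 74 at 3-fold. At least 2-fold lower in both were 158, or 726 at 1.5-fold, 34 at 3-fold, 280 with an offset of 1 and 67 with an offset of 64. At limits of 4-fold, 8-fold and 16-fold in both genotypes, 40, 15 and 4 genes were higher and 11, 1 and 0 lower. The other settings of these counts gave values within 1.5 times the main ones. Of 180 genes named by the rule, 154 were called; 120 kept the call in every setting, 34 lost it in at least 1 (26 of them without the block, 12 with the mean of all probe sets), and 0 of those called reversed. Of 87 called at 2-fold or more, 85 kept it; Rgcc and Tnc lost it without the block (adjusted p of 0.0659 and 0.0986, limma).

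Each net change rests on 2 pairs of arrays, so the spread is estimated with few degrees of freedom and mostly borrowed across genes. Below an intensity of about 100 the size of a change depends on the offset. In simulated data, more than the nominal share of calls was false for some of the gene spreads used. Shares of rises and falls depend on scaling, which is not given in the sources used here. The rise of the Actb 5' to 3' ratio with time was not tested as a cause.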

Other observations

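Gene families, taken by the start of the gene symbol among the 8954 bright genes and picked after their values were seen, are described here, some of them (Kif, Col) overlapping the lists above. Of these bright genes, 16% were higher and 28.1% lower. Zinc finger genes named Zfp, most of them DNA-binding factors, were lower for 102 of 202 and higher for 16. Zfp608 read 161 and 224 at 0 minutes and 50.8 and 70.7 at 120 minutes, wild-type first (-1.44 ± 0.096; limma, adjusted p = 7.09e-06), after 181 and 221 at 60 minutes. Zfp775 was already down at 60 minutes, at 40.6 and 45.9 from 125 and 171. After median centring 85 of the 202 were lower and 19 higher, and without the genotype block 63 and 10.

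Centrosomal protein genes (Cep) were lower for 17 of 26 and higher for 0, or 14 and 0 after median centring. Cep95 read 149 and 168 at 0 minutes and 54.0 and 63.9 at 120 minutes (-1.22 ± 0.098; limma, adjusted p = 2.23e-05). Genes of intraflagellar transport (Ift), which build cilia, were lower for 8 of 14, or 2 without the block. Lysine demethylases (Kdm) were lower for 9 of 15 and higher for 1, or 5 and 0 without the block, with Kdm6a going from 193 and 219 to 89.6 and 81.3 (-1.13 ± 0.104). Kinesins (Kif) were lower for 10 of 20. Of 16 autophagy genes (Atg), 7 were lower and 1 higher, or 2 and 1 without the block and 5 and 1 after median centring. Atg14 read 205 and 193 at 0 minutes, 82.5 and 77.1 at 60 minutes and 69.1 and 59.0 at 120 minutes. Collagens (Col) were higher for 6 of 17 and lower for 0, or 2 and 0 without the block.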
